A study of Canis lupus familiaris with 8 samples.

Results

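The genes described here are 8 genes of fat cells, ADIPOQ, CIDEA, LEP, PPARG, DGAT2, PNPLA2, UCP1 and RBP4, measured in dogs, in the anterior leaflet of the mitral valve. They were chosen by gene symbol, as every probe set whose platform annotation gives exactly 1 of these symbols. This rule found 16 probe sets among the 23836 on the array that are not array controls. Of the 16, 11 were bright enough to be tested, and all 8 genes kept at least 1 tested probe set.

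RNA came from frozen leaflets of 4 dogs affected by degenerative mitral valve disease (DMVD), in which the leaflets thicken and distort, and from leaflets of 4 control dogs, with 1 Affymetrix array for each dog. Dogs 2 and 4 of the affected group were Miniature poodles, dog 1 was a Lhasa apso and dog 3 a Dachshund, and all 4 controls were beagle crosses. Breed and disease therefore cannot be told apart. The sources used here give neither age nor sex, and name no treatment of the dogs. Each dog was measured on a single array, so no dog has an error of its own and the spread given below is the spread between dogs.

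Fat cells store triglyceride in lipid droplets, release it as fatty acids when other tissues need fuel, and secrete hormones into the blood. PPARG, a nuclear receptor that binds fatty acids, is the transcription factor that drives the formation of fat cells and switches on genes such as ADIPOQ. In the heart, fat lies mainly under the epicardium and in the groove between atria and ventricles, next to the base of the mitral leaflets.

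Each deposited value is the linear signal of a probe set, and the median of these per array ranged from 124 to 191. Signals under a floor of 34.2 were set to that floor, so a value at the floor is an upper bound. Differences are on the log2 scale, affected minus control, with the standard error (SE) from limma. The number of arrays limits the precision. Control 2 stood apart from the other 7 dogs in its cell type markers. The summed signal of 8 interstitial and fibroblast genes ranged from 97912 to 127550 in affected dogs and was 43890 in control 2, against 97243 to 127910 in the other controls. The summed signal of 17 cardiac muscle genes ranged from 32870 to 258380 in affected dogs and was 331940 in control 2, above every other dog, against 64882 to 160440 in the other controls. The 13 macrophage genes summed to 22019 to 48072 in affected dogs and to 1896 in control 2, against 8818 to 20799 in the other controls. The 3 brightest interstitial genes, VIM, DCN and COL1A2, were at 6903 or more in all 8 leaflets, and control 2 was the lowest dog for each. In control 2 COL1A2 was at 6903, against 19322 or more elsewhere. DCN was at 13116 there, against 19370 or more, and VIM at 18657, against 20508 or more. The other tested genes of that list were far lower in control 2 than in any other dog. There COL1A1 was at 1351, against 7867 or more elsewhere, and COL3A1 at 1426, against 5168 or more. FBLN1 was at 2200, against 12316 or more, POSTN at 168, against 1369 or more, and BGN at 68.5, against 430 or more. The muscle genes MYL4, TNNC1 and ACTC1 were well above the floor in all 8 leaflets. Where a difference or list median turned or moved by over 1.5 times without control 2 or control 3, that value is given beside it for the fat cell genes and the lists.

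For 5 of the 11 tested probe sets, 1 each of ADIPOQ, CIDEA, DGAT2, RBP4 and PPARG, signals varied more between the 4 control leaflets than for at least 97.2% of all tested probe sets. No fat cell gene differed between the groups beyond the spread between dogs. ADIPOQ (1582919_at) and CIDEA had lower mean log2 signals in affected dogs, with geometric means at 0.141 and 0.375 times those of controls. For these probe sets 3 of the 4 controls lay above every affected dog and control 2 below them all. The second ADIPOQ probe set was at 0.851 times the control level. PNPLA2 and UCP1 had nearly equal means in the groups. None of the 11 tested probe sets passed limma at an adjusted p of 0.05 over all probe sets (smallest adjusted p 0.658, for ADIPOQ). Over all 14705 tested probe sets the number called was also 0, or 0%, with 1151 at an unadjusted p under 0.05, or 7.83%. Of the 11 member probe sets, 0 had an unadjusted p under 0.05 and 0 had groups that did not overlap, against 4.66% of all tested probe sets. By sign, 8 of the 11 were lower and 3 higher in affected dogs, with a median difference of -0.21, beside 49.5% lower and a median of 0.0065 over all tested probe sets.

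**Figure D1:**
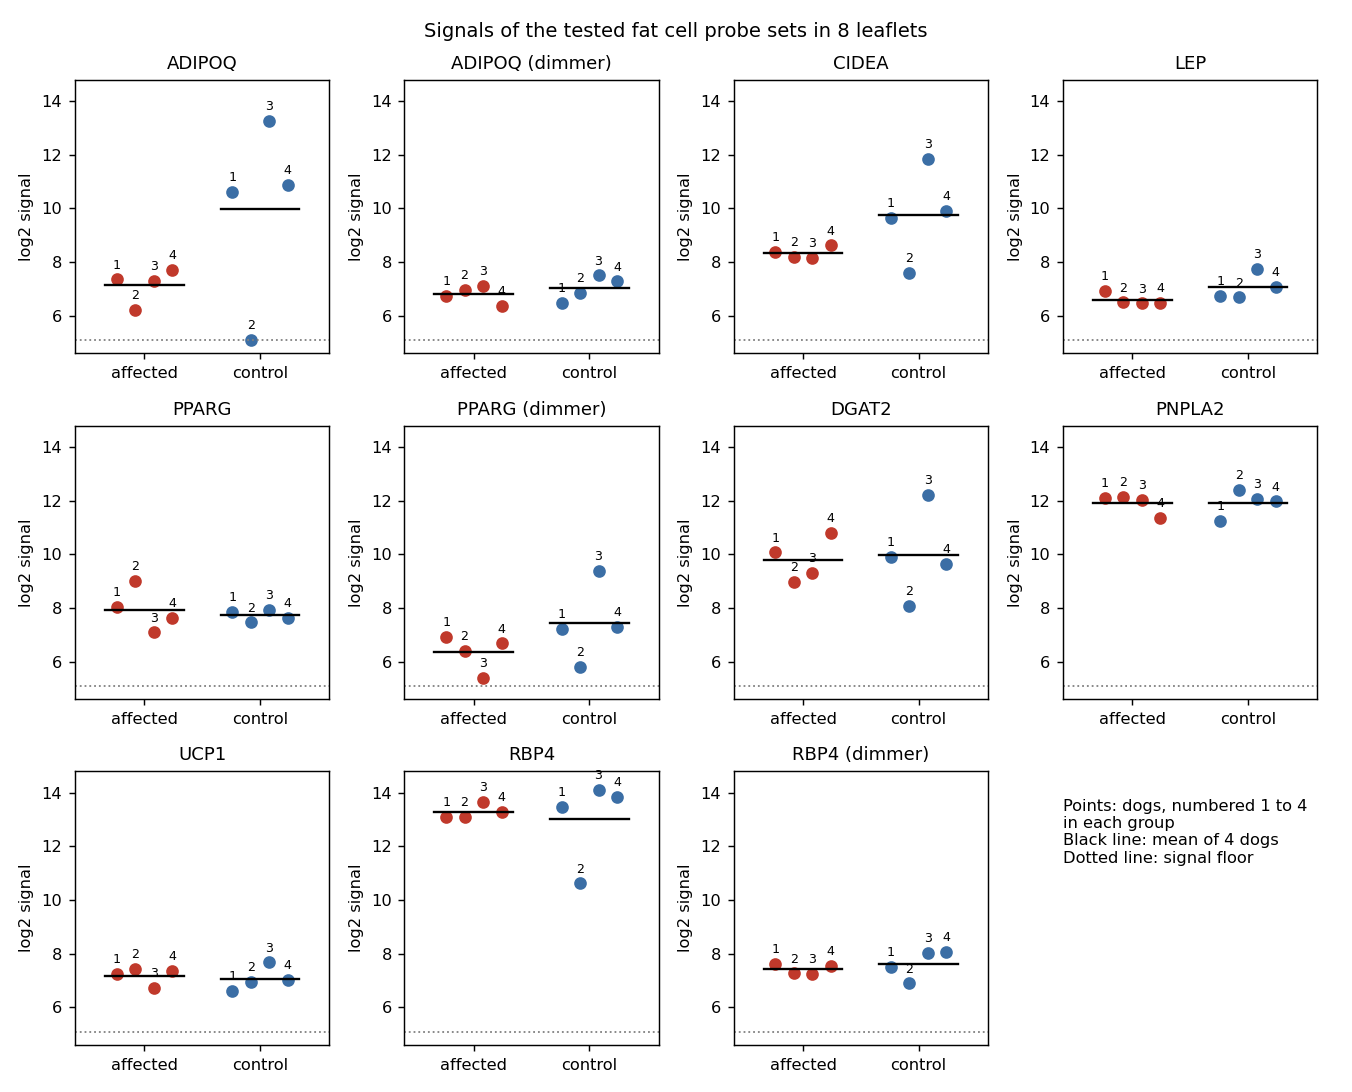
Log2 signal of the 11 tested probe sets of the fat cell genes in each dog (points, numbered 1 to 4 in each group) with the mean of 4 dogs (black line) and the floor at 5.10 (dotted line). Controls 1, 3 and 4 lie above all affected dogs for the brighter ADIPOQ probe set and CIDEA, and control 2 lies below them.

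ADIPOQ encodes adiponectin, a hormone made almost entirely by fat cells that raises insulin sensitivity. Its brightest probe set, 1582919_at, had signals of 164, 75.2, 157 and 208 in affected dogs 1 to 4, against 1586, 33.9, 9835 and 1884 in controls 1 to 4. The 4 affected leaflets were therefore low and alike, within a 2.77-fold range. The controls ran from the floor in control 2 to the highest signal of any dog in control 3, a 287-fold range. The mean log2 signal was 7.15 ± 0.63 in affected dogs and 9.97 ± 3.46 in controls (SD, n = 4 each). The difference was -2.82 ± 1.36 (SE), and its adjusted p of 0.658 in limma did not pass. An exact permutation test of this probe set alone, two-sided over 70 splits of the dogs, gave p = 0.143, where 4 against 4 dogs cannot give less than 0.0286.

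The size of the ADIPOQ difference rested on single controls. Without control 2 the affected dogs lay below all 3 remaining controls, and the difference was -4.44 ± 0.60 with an adjusted p of 0.185 in limma. Without control 3 it was -1.72 ± 1.20 with an adjusted p of 0.678. The second ADIPOQ probe set, 1582918_at, did not follow the first: its signals were 83.0 to 138 in affected dogs and 89.9 to 182 in controls, and its difference was -0.23 ± 0.33, or -0.075 without control 3. Both are annotated to the same target accession, so the platform's probes for this gene disagree, and the cause was not tested.

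LEP encodes leptin, the fat cell hormone that reports the size of fat stores to the brain. Probe set 1582537_at gave 121, 90.4, 87.9 and 89.0 in affected dogs, against 107, 103, 216 and 134 in controls. Control 3 was again the highest dog, and affected 1 lay among the controls, so the groups overlapped. The difference was -0.48 ± 0.33, with an adjusted p of 0.727 in limma, and it was -0.24 without control 3. The other LEP probe sets were not tested. One of these, 1582949_at, was at the floor on all 8 arrays, and 1582950_s_at was at the floor in 3 affected dogs and 2 controls.

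RBP4 carries retinol in the blood and is secreted by liver and by fat cells. Probe set 1583294_s_at had signals of 8750, 8809, 12931 and 9890 in affected dogs, against 11283, 1574, 17586 and 14830 in controls. Control 2 stood far below every other dog, control 1 lay within the range of the affected dogs and controls 3 and 4 above it. The mean difference of 0.27 ± 0.65 became -0.52 ± 0.24 without control 2, so 1 dog set its direction (adjusted p 0.925 and, without control 2, 0.593 in limma). Without control 3 it was 0.64. The second RBP4 probe set, 1595947_at, differed by -0.21 ± 0.32, or -0.45 ± 0.29 without control 2 and -0.073 without control 3, and control 2 was its lowest dog as well.

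CIDEA encodes a protein of the lipid droplet surface that promotes the fusion of droplets, and in mice it is best known from brown fat. Its single probe set, 1590348_at, had signals of 332, 295, 283 and 394 in affected dogs, against 798, 194, 3726 and 960 in controls. The dogs fell in nearly the same order as for ADIPOQ: controls 3, 4 and 1 were highest, then the affected dogs, then control 2. The affected dogs lay within a 1.39-fold range and the controls within a 19.2-fold range. The difference was -1.42 ± 0.70 with an adjusted p of 0.660 in limma and an exact permutation p of 0.143. It was -2.13 ± 0.47 without control 2 (adjusted p 0.232) and -0.71 ± 0.51 without control 3 (adjusted p 0.681).

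DGAT2 catalyses the last step of triglyceride synthesis. Probe set 1592973_at gave 1075, 507, 636 and 1793 in affected dogs, against 947, 271, 4797 and 803 in controls. Control 3 was highest and control 2 lowest, as for CIDEA, but affected 4 came next after control 3 and the groups were interleaved. The difference was -0.17 ± 0.75 (adjusted p 0.966 in limma), and it was -0.79 ± 0.62 without control 2 and 0.59 ± 0.54 without control 3. The other DGAT2 probe set, 1592974_at, was not tested and had signals from 27.3 to 153 over the 8 dogs.

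PNPLA2 begins the breakdown of stored triglyceride and works in fat and in heart muscle. Its probe set 1586388_at gave 4350, 4493, 4171 and 2648 in affected dogs, against 2401, 5442, 4281 and 4019 in controls. Here control 2 was the highest dog and control 1 the lowest, an order unlike that of ADIPOQ. The difference was -0.015 ± 0.30, with an adjusted p of 0.991 in limma, and it was 0.15 without control 2 and 0.034 without control 3.

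PPARG had 2 probe sets that behaved differently. The brighter, 1582904_at, gave 264, 511, 136 and 197 in affected dogs, against 233, 176, 242 and 199 in controls. The controls were alike and the affected dogs lay on both sides of them, so the difference of 0.22 ± 0.39 was smaller than its error. It was -0.13 without affected 2, the highest dog, and 0.13 without control 2. Probe set 1582905_at gave 120, 83.7, 42.2 and 102 in affected dogs, against 150, 56.3, 664 and 155 in controls. It repeated the order seen for ADIPOQ among the controls, with controls 1, 3 and 4 above all affected dogs and control 2 below all of them but affected 3. Its difference was -1.08 ± 0.67 (adjusted p 0.704 in limma), or -1.62 ± 0.58 without control 2 and -0.43 ± 0.52 without control 3. Both PPARG probe sets carry the same target accession, and which of them follows the transcript more closely was not tested.

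UCP1 lets brown fat mitochondria turn fuel into heat. Probe set 1582959_at gave 150, 171, 105 and 165 in affected dogs, against 97.6, 124, 204 and 131 in controls, and no dog stood apart. Its difference was 0.12 ± 0.32 with an adjusted p of 0.939 in limma, or 0.32 without control 3. The other UCP1 probe sets were too dim to test: 1582660_at ranged from 29.3 to 63.5 over the 8 dogs, and 1582960_s_at was at the floor in all 4 affected dogs and in 3 controls. Of the brown fat genes fixed for comparison, PRDM16 was under the floor in every dog, with signals from 4.49 to 14.4. PPARGC1A, a coactivator of mitochondrial genes that heart muscle also uses, had signals of 117 to 223 in affected dogs and 173 to 582 in controls, and differed by -0.48 ± 0.41, or -0.083 without control 2. Its highest dog was control 2, which also had the highest cardiac muscle signal.

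**Figure D2:**
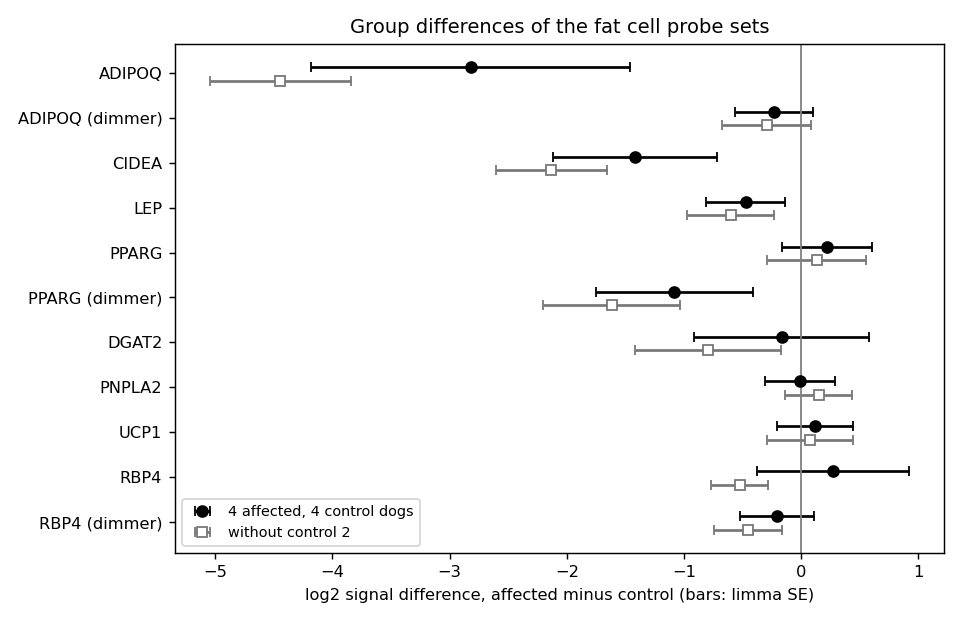
Difference in log2 signal, affected minus control, of each tested fat cell probe set (points, bars are the limma SE) with all 8 dogs (filled circles) and without control 2 (open squares). The brighter ADIPOQ probe set differs by -2.82 with all dogs and by -4.44 without control 2. The brighter RBP4 probe set and PNPLA2 change sign.

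Leaving out control 2 moved the fat cell probe sets as follows. Of 11 probe sets, 3 then had all affected dogs below all remaining controls, against 5.23% of all 14705 tested probe sets in those 7 dogs. They were those of ADIPOQ (1582919_at), CIDEA and PPARG (1582905_at). With all 8 dogs, these 3 already had controls 1, 3 and 4 above every affected dog. The count of 3 therefore followed from which dog was left out, and it carries no test. None of the 11 had all affected dogs above the remaining controls, against 3.69% of all tested. The same 3, all lower, had an unadjusted p under 0.05, against 4.9% of all tested that were lower at that p and 8.56% in either direction, and 0 probe sets of any gene passed the adjusted threshold. The median difference over the 11 was -0.52. Leaving out control 3 gave 0 of 11 in either direction, against 4.53% lower and 4.28% higher of all tested, and a median of -0.073. At an unadjusted p under 0.05 it gave 0 of 11, against 8.43% of all tested and 4% lower. Control 2 had the highest cardiac muscle signal and the lowest fibroblast and macrophage signals of the 8 dogs, and their part in its fat cell signals was not tested.

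The spread between dogs differed among the probe sets. In affected dogs the SD of ADIPOQ (1582919_at) exceeded that of 70.3% of all tested probe sets, and in controls that of 99.99%. The shares were 9.53% in affected dogs and 98.7% in controls for CIDEA, 83.1% and 98.6% for DGAT2, and 16.0% and 98.2% for RBP4 (1583294_s_at). The probe sets of PPARG went opposite ways, with 72.9% in affected dogs and 97.2% in controls for 1582905_at but 82.7% in affected dogs and 16.3% in controls for the brighter 1582904_at. The other probe sets of ADIPOQ and RBP4 were unremarkable in controls, at 55.1% and 66.5%.

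Leaving out single controls changed these control SDs by differing amounts. That of ADIPOQ was 3.46 with all controls, 1.45 without control 2 and 3.27 without control 3, and that of RBP4 (1583294_s_at) was 1.61, 0.32 and 1.77. That of CIDEA was 1.74 with all controls, 1.21 without control 2 and 1.26 without control 3. That of DGAT2 was 1.71, 1.43 and 0.98, and that of PPARG (1582905_at) was 1.47, 1.23 and 0.83, in the same order. Other than that of RBP4 without control 2, each of these SDs stayed at 0.83 or more. The median SD over all tested probe sets was 0.47 in affected dogs and 0.41 in controls. These percentages describe 4 dogs in each group and carry no test, and a difference in spread between the groups was not tested. In bulk tissue, fewer fat cells and less RNA of these genes in each fat cell cannot be told apart.

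Control 3 was the highest dog in 6 of the 8 genes by their brightest probe set, and control 2 the lowest in 4. How often these dogs were highest or lowest over all tested probe sets is not given here. The counts therefore describe these 8 genes only and cannot show a trait of fat cell genes. Control 3 was highest for ADIPOQ, CIDEA, LEP, DGAT2, UCP1 and RBP4, and control 2 was lowest for ADIPOQ, CIDEA, DGAT2 and RBP4. Affected 3 was lowest for LEP and PPARG, and control 1 for PNPLA2 and UCP1. In control 3 the cardiac muscle genes summed to 64882, the lowest of the controls, and the fibroblast genes to 127910, the highest of all dogs. The share of either in the fat cell signals of control 3 was not tested.

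**Figure D3:**
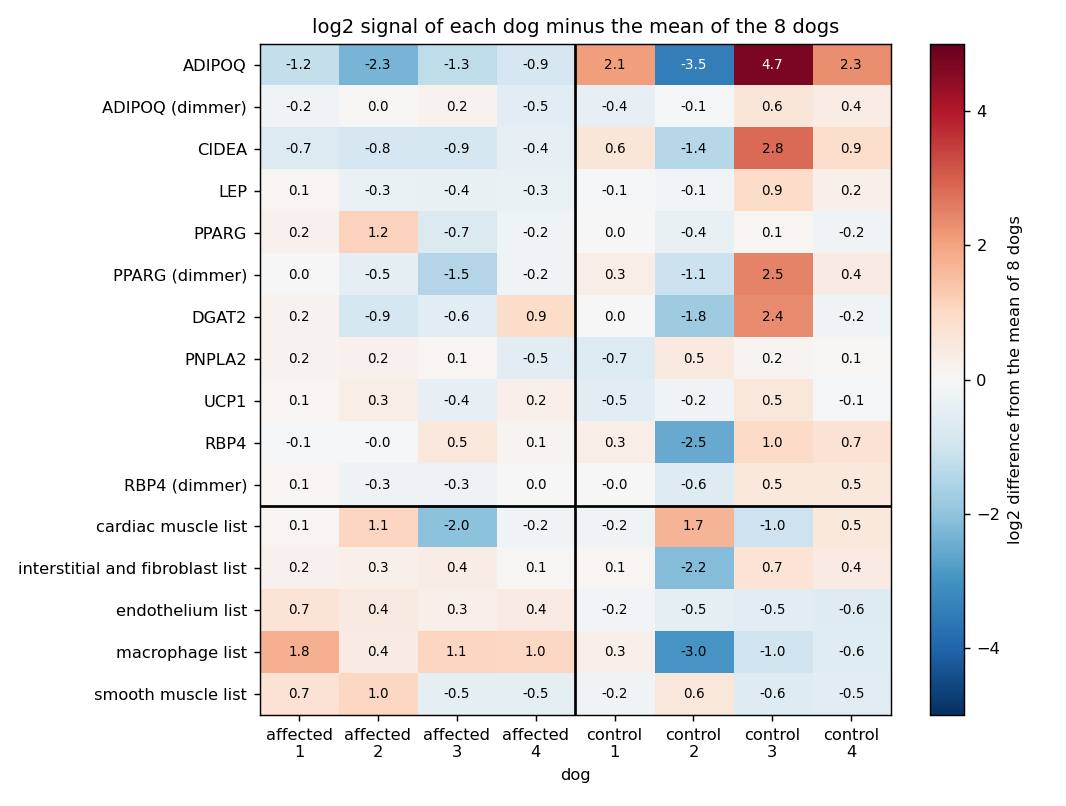
Log2 signal of each dog minus the mean of the 8 dogs, for the 11 fat cell probe sets (upper rows) and the mean of 5 marker lists of other cell types (lower rows). The brighter ADIPOQ probe set, CIDEA and DGAT2 are highest in control 3 and lowest in control 2, where the cardiac muscle list is highest.

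Likeness to ADIPOQ was measured by Pearson's r of log2 signals with probe set 1582919_at over the 8 dogs, with 1 probe set, the brightest, for each of 5437 genes. The dogs fell into 3 with ADIPOQ signals of 10.63 or more on the log2 scale (controls 1, 3 and 4) and 5 with 7.70 or less, so r mostly describes this division. CIDEA ranked second of all genes, with r = 0.971 and Spearman's rho = 0.976. S100B, a calcium-binding protein, ranked first with r = 0.972 and rho = 0.905. The next 8 genes were DNAJC8, PURA, CCL21, LOC479911, ATL1, INSIG1, DNMT1 and PCBP2, with r from 0.909 to 0.954. In all, 11 of the 5437 genes had r over 0.9. In an exact permutation test over the 40320 orders of the dogs, 0 of 14704 probe sets passed after Benjamini-Hochberg adjustment (smallest adjusted p 0.547). The smallest possible p, 1 in 40320, is too large for a single probe set to pass this adjustment. The test therefore cannot decide on single genes such as CIDEA.

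S100B had signals of 146, 89.3, 226 and 188 in affected dogs, against 451, 107, 1209 and 682 in controls, with 3 controls above all affected dogs as for ADIPOQ. INSIG1, which holds back sterol synthesis, had signals of 293, 217, 254 and 294 in affected dogs, against 477, 203, 474 and 539 in controls. Both had control 2 near or below the lowest affected dog. Their differences were -1.54 ± 0.65 and -0.60 ± 0.33, and neither passed the threshold (adjusted p 0.614 and 0.683 in limma). Without controls 3 and 4, the dogs farthest from the ADIPOQ median, r was 0.977 for CIDEA, 0.921 for S100B and 0.983 for INSIG1.

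Among the other fat cell genes, r with ADIPOQ was 0.795 for LEP (rank 98), 0.774 for DGAT2 (rank 122) and 0.718 for RBP4 (rank 228). It was 0.874 for PPARG probe set 1582905_at and -0.049 for the brighter PPARG probe set, 0.199 for UCP1 and -0.348 for PNPLA2. The second ADIPOQ probe set, 1582918_at, had r = 0.443 with the first, or -0.567 without controls 3 and 4. Without controls 3 and 4, LEP was at 0.195, UCP1 at -0.476, PNPLA2 at -0.876, RBP4 at 0.658 and DGAT2 at 0.626, so the likeness of LEP rested on those dogs. With the group means subtracted, r was 0.959 for CIDEA, 0.955 for RBP4 and 0.880 for DGAT2, which mostly describes the controls, since ADIPOQ spread little among the affected dogs.

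**Figure D4:**
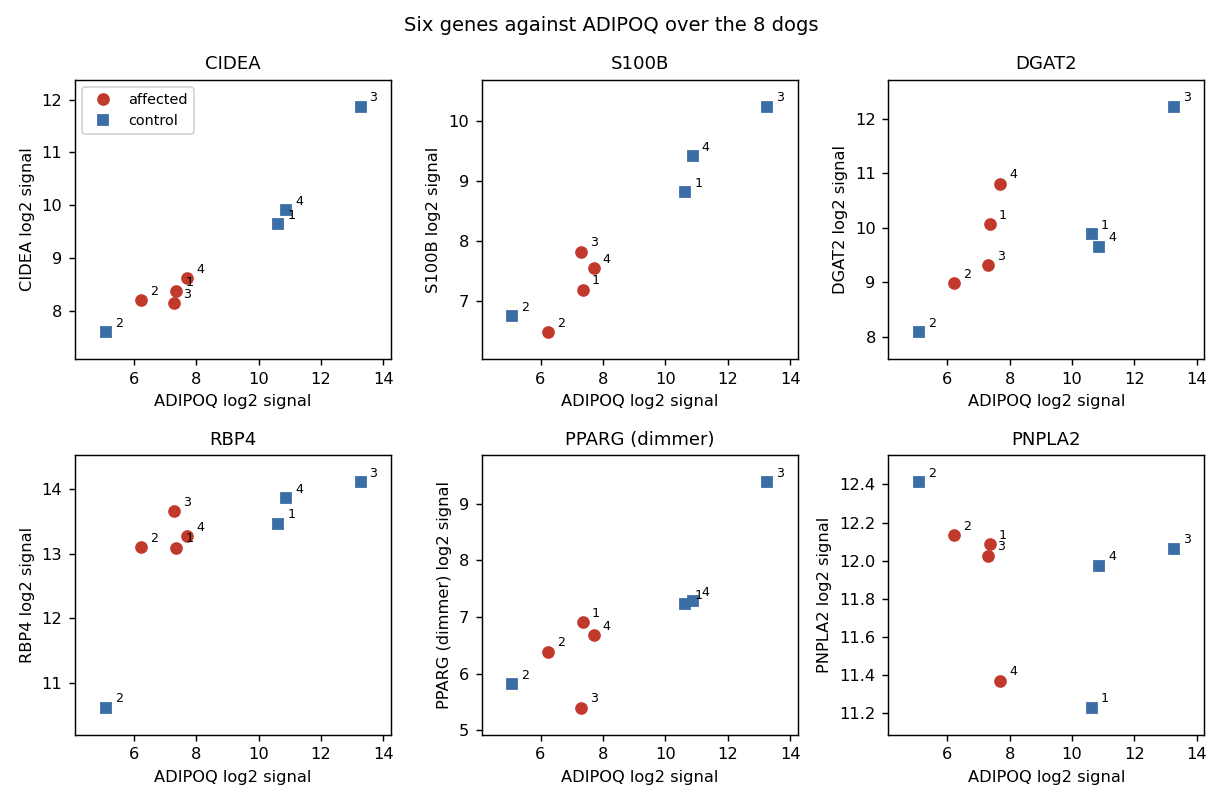
Log2 signal of CIDEA, S100B, DGAT2, RBP4, the dimmer PPARG probe set (1582905_at) and PNPLA2 against ADIPOQ in 4 affected dogs (circles) and 4 control dogs (squares), numbered by dog. Over the 8 dogs r is 0.971 for CIDEA, 0.972 for S100B and -0.348 for PNPLA2.

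Other genes of fat cells were thinly covered. Of 20 genes of fat cell identity and fat hormones, 3 had a probe set with a single gene symbol and 2 were tested. FABP4, CIDEC and CFD were not analysed here. FFAR4, a receptor for long-chain fatty acids, had signals of 153, 148, 101 and 114 in affected dogs, against 139, 133, 429 and 162 in controls, with control 3 again highest. EBF1, a transcription factor of fat cell formation and of B cells, had 522, 772, 1264 and 678 in affected dogs, against 993, 357, 1498 and 969 in controls, with control 3 highest and control 2 lowest. FFAR4 differed by -0.57 ± 0.40, or -0.17 without control 3, and EBF1 by -0.14 ± 0.44, or -0.56 without control 2 and 0.13 without control 3. Neither passed, and the list median of -0.36 was -0.65 without control 2 and -0.022 without control 3. The lipase LIPE was too dim to test, with signals from 15.0 to 120.

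Of 23 genes of triglyceride synthesis and the lipid droplet, 6 were tested, with 3 higher and 3 lower, 0 called and a median of -0.011. That median was 0.24 without control 2 and -0.22 without control 3. LPIN1, an enzyme of triglyceride synthesis that also acts as a coactivator, had signals of 231, 516, 240 and 237 in affected dogs, against 457, 647, 731 and 766 in controls. Only affected 2 reached into the controls, and the difference was -1.15 ± 0.32 (adjusted p 0.445 in limma). The droplet coat protein PLIN2, which most cell types make, differed by 0.28 ± 0.32 and BSCL2, which shapes new droplets, by -0.23 ± 0.30. In lipolysis and its control, 2 of 16 listed genes were tested: the kinase subunits PRKACA and PRKAR2B differed by -0.74 ± 0.65 and 0.14 ± 0.32, or by -0.28 and 0.014 without control 2. Without control 3 PRKAR2B was at 0.38. The median of these 2 genes, -0.30, was -0.13 without control 2 and -0.10 without control 3.

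Fatty acid uptake and synthesis was the best covered of the 8 fat cell and lipid lists, with 14 of 23 genes tested, 9 lower and 5 higher, and a median of -0.097. None was called in limma, while 5 lower genes and 1 higher gene had an unadjusted p under 0.05, and the groups did not overlap for 4 lower genes and 1 higher gene. The background rates were 3.81% and 4.02% for the p, and 2.31% and 2.35% for the overlap. The fatty acid transporter CD36 had signals of 342, 481, 169 and 122 in affected dogs, against 900, 1921, 1031 and 888 in controls. The lipoprotein lipase LPL had 341, 900, 385 and 386 in affected dogs, against 942, 2559, 1266 and 1683 in controls. That LPL probe set differed by -1.70 ± 0.39, and the other LPL probe sets by -1.97 ± 0.51 and -0.59 ± 0.53.

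The desaturase SCD had 1138, 959, 1479 and 1179 in affected dogs, against 2004, 2723, 3751 and 2237 in controls. For CD36 and LPL, control 2 was the highest dog, whereas it was the lowest for ADIPOQ and CIDEA, and for SCD control 3 was the highest. Genes named here after their values were seen are ACSL1, which activates fatty acids and was lower without overlap (-1.10 ± 0.34), VLDLR, a lipoprotein receptor (-1.09 ± 0.47), and the related ACSL4 (1.05 ± 0.46) and ACSL5 (0.45 ± 0.23, higher without overlap).

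**Figure D5:**
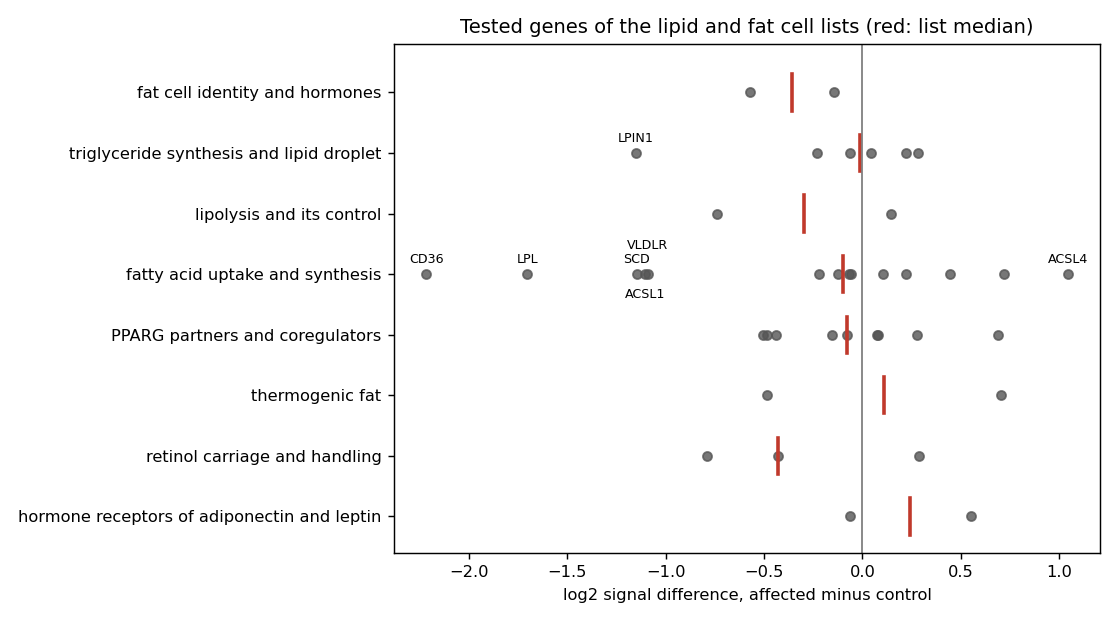
Difference in log2 signal, affected minus control, of each tested gene (points) in 8 lists of fat cell and lipid genes, with the list median (red line). CD36 and LPL lie farthest to the left, at -2.22 and -1.70, and the list medians lie between -0.43 and 0.24.

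The partners and coregulators of PPARG were measured by 9 genes, 5 lower and 4 higher, with 0 called and a median of -0.076, which was 0.039 without control 2 and -0.22 without control 3. NR1H3, a nuclear receptor for oxysterols, differed by 0.69 ± 0.40, the coactivator NCOA1 by -0.44 ± 0.26 and PPARA, the relative of PPARG that governs fatty acid burning, by -0.51 ± 0.33. Without control 2 NR1H3 was at 0.40 and PPARA at -0.24. The 4 probe sets of PPARA ranged from -1.41 to -0.16. Of the genes for retinol carriage and handling 3 were tested and 0 called, with a median of -0.43. Transthyretin (TTR), the blood partner of RBP4, differed by 0.29 ± 0.29, the retinal reductase RDH11 by -0.43 ± 0.28 (its other probe set by 0.29 ± 0.42) and the retinal dehydrogenase ALDH1A1 by -0.79 ± 0.67. ALDH1A1 had signals of 468, 1328, 2442 and 3205 in affected dogs, against 3743, 789, 3641 and 4044 in controls. Control 2 was low for ALDH1A1 as for RBP4, and the ALDH1A1 difference was -1.36 without it. TTR was at 0.17 without control 2 and 0.50 without control 3.

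The receptor side was measured by ADIPOR1, a receptor of adiponectin, and by STAT3, which carries the leptin signal among many others. ADIPOR1 had signals of 1959 to 2947 in affected dogs and 2016 to 3269 in controls. It differed by -0.065 ± 0.24, or 0.073 without control 2 and -0.16 without control 3. STAT3 differed by 0.55 ± 0.30 (adjusted p 0.672 in limma). The leptin receptor LEPR was too dim to test, with signals from 4.12 to 47.4. In the thermogenic list UCP2, a relative of UCP1 that immune cells also make, differed by 0.71 ± 0.61, or 0.077 without control 2. The median of UCP2 and PPARGC1A, 0.11, was -0.0031 without control 2.

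Marker genes of other cells were read beside the fat cell genes. The macrophage list had 13 of 13 tested genes higher in affected dogs, with a median of 1.99, and 8 of these at an unadjusted p under 0.05, against 50.5% of all tested probe sets higher and 4.02% higher at that p. Its named genes, the receptors FCER1G, FCGR1A, CD14 and CSF1R and the protease CTSS, differed by 2.91, 3.53, 2.09, 1.57 and 1.34. FCER1G was at the floor in 3 controls and FCGR1A in 1, so the differences of FCER1G and FCGR1A are lower bounds. Without control 2 CSF1R was at 0.64, CTSS at 0.46 and the list median at 1.34. The endothelial list had 6 of 6 genes higher, with a median of 1.00 and 4 at an unadjusted p under 0.05, beside the same 4.02% of all. Its named genes were NOS3 (1.07), ENG (1.27), PECAM1 (1.01, with its other tested probe sets from 0.16 to 0.73) and TIE1 (0.48). No gene of the 5 marker lists passed the adjusted threshold in limma.

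Of 17 cardiac muscle genes 16 were lower, with a median of -0.53 that was -0.059 without control 2 and -0.96 without control 3. The sarcomere genes MYOZ2 and ACTN2 and the calcium channel RYR2 differed by -1.16, -1.09 and -0.96, or by -0.64, -0.35 and -0.32 without control 2. Without control 3 ACTN2 was at -1.80. Of 8 interstitial and fibroblast genes 7 were higher, with a median of 0.33 that was -0.13 without control 2 and 0.61 without control 3, and the matrix protein POSTN differed by 1.81, or 0.82 without control 2. DCN was counted as higher at 0.16 by its brightest probe set, while its other probe sets differed by -0.46 ± 0.50 and -0.68 ± 0.63. Of 7 smooth muscle genes 6 were higher, with a median of 0.48 that was 0.80 without control 2. In that list ACTG2 differed by 1.09, ACTA2 by 0.53 (0.80 without control 2), TAGLN by 0.48 and the kinase MYLK by -0.91. The other MYLK probe set differed by 0.13 and the other tested ACTG2 probe set by 1.91. The other TAGLN probe sets differed by 0.016 ± 0.24, 0.090 ± 0.22 and 1.04 ± 1.04. The part of these cell types in the fat cell signals was not tested.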

How the data were processed

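One array per dog was analysed. The authors deposited 1 linear intensity signal for each probe set, and per the submitters' processing notes MAS5 was used. The sources used here give no MAS5 version and no detection calls. The authors had scaled the arrays: the mean without 2% at each end was 500.1 on all 8. Signals were rescaled to it, floored at 34.2 (the 20th percentile) and taken to log2. Testing required a signal over an array's own 40th percentile on at least 4 of 8 arrays. Groups were compared with limma 3.58.1 (R 4.3.3), using lmFit and eBayes with its prior variance following mean signal. Tests were two-sided, and p-values were adjusted by Benjamini-Hochberg over 14705 probe sets. Alternatives tried were a block for replicate number, array weights, other variance priors, normalizations, floors and filters, and leaving out each dog. Member genes got every probe set, and other genes the brightest. Named genes were all members, the 3 smallest p values and, for markers, the 3 brightest of each list, and the 10 most like ADIPOQ. Members and lists were chosen with earlier results of these data known. Gene names came from the platform annotation, and the 8 members' identifiers were found in the RefSeq table of a German Shepherd assembly (UU_Cfam_GSD). No coordinates are given, since no genome build is named. In simulated data 67.5% of 200 probe sets changed by a log2 difference of 2 were recovered among 14705, 95.3% at 4 and 0% at 1.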

Additional observations from a re-analysis of the deposited data

Results flagged for a closer look

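In 6 of 58 groups of 4 dogs, the most distant dog passed Dixon's test against the other 3 at the 95% level, which chance passes in about 1 of 20 groups. For LEP probe set 1582537_at, affected 1 had a log2 signal of 6.91, against 6.46 to 6.50 in the other affected dogs. For PNPLA2, affected 4 was at 11.37, against 12.03 to 12.13 in the other affected dogs. The mean of the 3 retinol genes was 9.12 in control 2, against 10.06 to 10.18 in the other controls. The remaining 3 groups rest on the floor of 5.10, which made most of their values equal, so their deposited signals are given too. In LEP probe set 1582950_s_at, affected 2 was at 5.41, but the signals of the affected dogs were 26.1, 42.6, 15.3 and 31.0. In the same probe set control 1 was at 5.44, with signals of 43.6, 33.0, 15.5 and 35.3 in controls. In UCP1 probe set 1582960_s_at, control 4 was at 5.84, with signals from 9.68 to 57.5 in controls. These 3 say nothing about a dog that stands apart.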

How the results depend on the processing

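The number of called probe sets was 0 under every planned setting other than the replicate block, which gave 4 (0 of them members), and was 0 to 1 without single dogs (1 without control 1). The labels name no pairing of dogs by replicate number. Deviations of same-numbered dogs from their group means correlated by -0.12, 0.41, 0.022 and -0.013, which cannot settle whether dogs were paired. Over 225 recomputed differences of the 11 member probe sets, 0 were called (smallest adjusted p 0.172) and 12 turned sign. Over 1051 of the other named genes, 0 were called and 19 turned sign. Without single dogs PPARG (1582904_at) ranged from -0.13 to 0.50, DGAT2 from -0.79 to 0.59, PNPLA2 from -0.24 to 0.16, UCP1 from -0.037 to 0.32, RBP4 (1583294_s_at) from -0.52 to 0.64, EBF1 from -0.56 to 0.13, ADIPOR1 from -0.17 to 0.073, MYL4 from -0.60 to 0.19, TNNC1 from -0.64 to 0.34, ACTC1 from -0.18 to 0.52, COL1A2 from -0.072 to 0.56, DCN from -0.031 to 0.26 and DES from -0.27 to 0.95. With quantile normalization PNPLA2 was at 0.011, ACTC1 at -0.13 and DCN at -0.11, and with array weights PNPLA2 was at 0.054, RBP4 at -0.34, ADIPOR1 at 0.027 and DCN at -0.030. The cause was not tested. With 1 array for each dog, dim probe sets at the floor give bounds, and 4 dogs a group leave changes of the size of 1 on the log2 scale undetected in simulated data.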
